A study of Homo sapiens with 16 samples.

Results

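BT474 is an established human breast cancer cell line of luminal origin that carries many copies of the receptor gene ERBB2 and expresses the oestrogen and progesterone receptors. The comparison set BT474 cells grown as 3D spheroids, sampled 10 days after seeding, against the same line grown as flat 2D monolayers. It rests on 4 of the 16 RNA-seq libraries of the series, 2 from day 10 spheroids and 2 from monolayers, chosen by their column names in the gene count table. The 2 libraries of BT474 spheroids sampled 20 days after seeding entered the same fit of 6 libraries, because they share the estimate of spread between replicates. The other 10 libraries are HCC1806, a triple-negative line, in the same 3 culture forms, and CAL148 and ZR-75-30 as monolayers. Groups follow the sample titles, since a treatment label names monolayer culture for all 16 samples, spheroids included.

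By the labels BT474 was kept in DMEM with 10% fetal bovine serum, and no drug, transgene or edit is named for any group. How the spheroids were formed, and in which medium, is not given in the sources used here. The labels do not say whether replicates were separate cultures, so p-values measure the spread between these samples, which may be technical alone. In bulk RNA fewer cells of a type and less RNA per cell cannot be told apart.

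As background, cells of a monolayer are spread on plastic under medium, while cells of a spheroid touch neighbours on all sides and, in its interior, receive less oxygen and nutrient. Luminal breast cells that touch each other in 3D can polarise and secrete, and apocrine cells of the breast and skin glands secrete a characteristic group of small proteins. Cell shape and tension set the activity of the coactivators YAP and TAZ, and bone morphogenetic proteins act through SMAD factors on the ID genes, so both pathways are commonly read from their target genes. The series' title places the comparison in a study of stem cell enrichment and drug response in spheroids.

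Library totals were 42029519 and 72489002 counts in day 10 spheroids, 41168105 and 41805432 in monolayers and 38230329 and 39018203 in day 20 spheroids. A floor of 3 counts corresponds to 0.0414 to 0.0785 CPM (counts scaled to the library total) in these libraries. Levels below are normalised CPM, which compare a gene between libraries but not genes of different length. Mitochondrially encoded genes took 5.74% and 3.89% of counts in day 10 spheroids, against 2.43% and 2.31% in monolayers. All 11 luminal and ERBB2-region markers chosen for the line were detected in every library, with the luminal keratin KRT8 at 3109 and 3315 CPM in day 10 spheroids, against 3894 and 3164 CPM in monolayers. Chosen as low in the line were 3 markers, the basal keratins KRT14 and KRT5 and VIM. KRT14 was at 0 in both day 10 libraries and at 0 and 0.0470 CPM in monolayers. KRT5 was at 0 and 0.0834 CPM, against 0.189 and 0 CPM. VIM was expressed, at 31.9 and 27.5 CPM, against 15.2 and 21.6 CPM. Among 22 basal markers, 10 stayed under 1 CPM in all 4 libraries. The basal list summed to 196 and 205 CPM in day 10 spheroids, against 236 and 212 CPM in monolayers. PTPRC, which marks leukocytes, and the fibroblast markers DCN, PDGFRA and PDGFRB were at 0 counts in all 6 libraries. Of the 13 fibroblast, 11 endothelial and 15 leukocyte markers, 11, 8 and 14 stayed under 1 CPM in all 4 libraries. The summed fibroblast list, nearly all COL1A1, was 103 and 112 CPM in day 10 spheroids and 86.3 and 84.2 CPM in monolayers, and the endothelial list summed to 19.0 and 19.8 CPM, against 15.9 and 17.8 CPM.

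Of 17447 genes tested, 2547 (14.6%) passed an adjusted p of 0.05 and are called below. Of these, 1400 (8.02% of genes tested) were higher in day 10 spheroids and 1147 (6.57%) were lower. A change of at least 2-fold was called for 488 genes (2.8%) with higher and 212 genes (1.22%) with lower levels in day 10 spheroids. All 2547 called genes had libraries that did not overlap between the groups, and over all genes tested 5045 stood higher and 4687 lower in that way. Every call thus came with non-overlap, and where non-overlap is stated below it adds no support to a call. The median log2 fold change over all genes was -0.0013. Counts of list members below are to be read beside the 8.02% called higher and 6.57% called lower over all genes. A list count near those shares shows nothing particular to the list. Most called changes were thus under 2-fold.

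Single libraries moved these counts by more than 1.5 times, and in each such fit the remaining library of that group was assumed to vary like those of the other groups. Without day 10 replicate 1 or replicate 2, 817 and 732 genes were called, and without monolayer replicate 1 or replicate 2, 4689 and 4600. A fit of all 12 HCC1806 and BT474 libraries called 27 genes. Among them, of the genes named here, were APOD, LYZ, KLK12, KLK11, KLK7, PIP, LOXL4, NOS3, SMAD6, AMOTL2, STOM, PPARA and ABCC3. In that fit the HCC1806 monolayers, whose mitochondrial shares were 17.8% and 0.768%, enter the estimate of spread. Where a call below was lost under an alternative other than that fit, this is stated beside it, and "without either library" means that each was left out in turn. Of the 35 list counts of 1 or 2 genes, 33 changed by more than 1.5 times in at least 1 fit without a library. Of the 47 list counts of 3 or more genes, 44 did so too, and not each change is described.

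**Figure D1:**
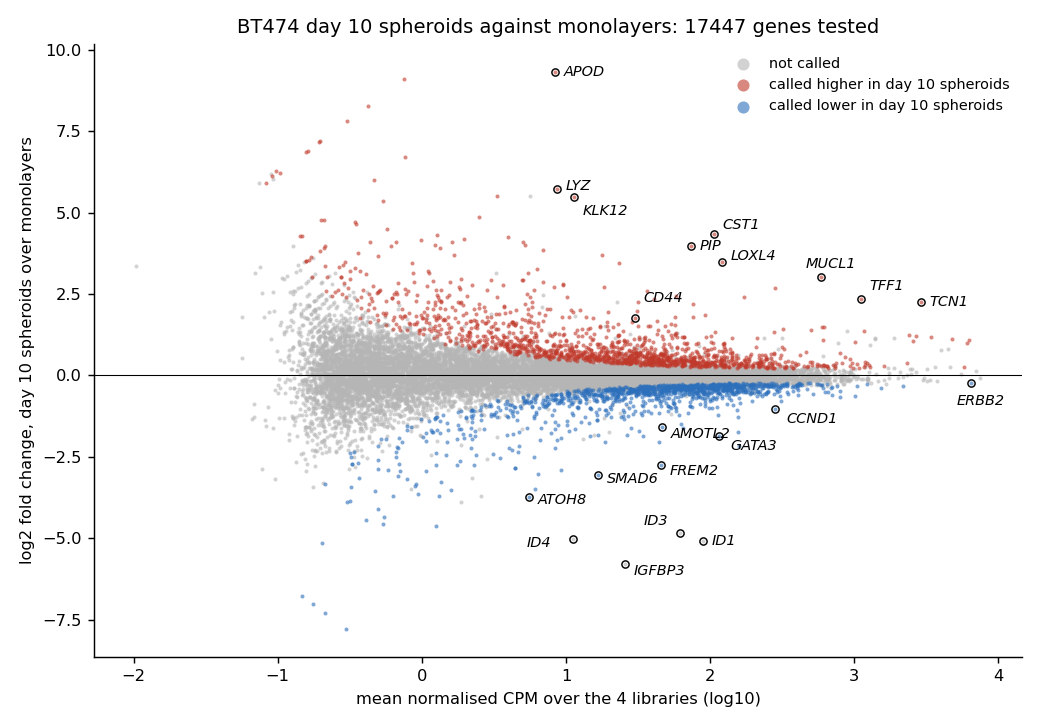
Log2 fold change of day 10 spheroids over monolayers (vertical axis) against mean normalised CPM over the 4 libraries (horizontal log10 axis) for the 17447 genes tested, with called genes in red (1400 higher) and blue (1147 lower) and genes named in the text circled. APOD stands highest at 9.32 among the labelled genes, while ID1, ID3, ID4 and IGFBP3 lie near or below -4.8 and are grey because they were not called.

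Several genes for secreted proteins rose. APOD encodes apolipoprotein D, a lipid carrier abundant in breast cyst fluid, and lies on chromosome 3 at 195568702 to 195584205 (GRCh38). It had 716 and 1177 counts in day 10 spheroids, against 0 and 2 counts in monolayers, which is 17.3 and 16.4 CPM against 0 and 0.0470 CPM. With 2 monolayer counts the ratio of summed counts per total was 686 (95% exact counting interval 189.6 to 5667), and the adjusted p was 1.61e-07. APOD was thus near absent from monolayers and plainly present in spheroids.

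LYZ, which encodes the antibacterial enzyme lysozyme, had 15.4 and 18.6 CPM in day 10 spheroids, against 0.354 and 0.282 CPM in monolayers, a log2 fold change of 5.73 ± 0.21 (SE, adjusted p = 9.26e-08). Lysozyme is also a leukocyte marker, but it was the only one of that list's 15 genes above 1 CPM. Both monolayers were far below both spheroid libraries.

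Kallikrein-related peptidases are secreted serine proteases encoded in a cluster on chromosome 19. KLK12 (51029092 to 51035230) had 19.2 and 25.2 CPM in day 10 spheroids, against 0.495 and 0.493 CPM in monolayers, a log2 fold change of 5.48 ± 0.20 (SE, adjusted p = 9.26e-08). Its neighbour KLK11 (51022216 to 51028039) had 10.7 and 12.1 CPM, against 0.566 and 1.79 CPM (log2 fold change 3.28 ± 0.37 SE, adjusted p = 0.000865). KLK10 (51012739 to 51020175) had 7.32 and 7.66 CPM, against 0.118 and 0.658 CPM (log2 fold change 4.26 ± 0.43 SE, adjusted p = 0.00023). A further member, KLK7, was named after its values were seen and had 22 and 49 counts in day 10 spheroids and 0 in both monolayers, which is higher by at least 17.1-fold if the 2 monolayers together held 3 counts, the floor (adjusted p = 0.00163, and 0.0588 with limma on FPKM). These 4 genes were picked by their changes or after their values were seen, so their shared rise describes them and not the family.

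PIP, the prolactin-induced protein of apocrine secretions, had 136 and 141 CPM in day 10 spheroids, against 10.0 and 7.71 CPM in monolayers (log2 fold change 3.96 ± 0.12 SE, adjusted p = 3.83e-08). The mammaglobin gene SCGB2A2 had 122 and 115 CPM, against 38.0 and 29.6 CPM (adjusted p = 3.79e-05). AZGP1, which encodes the lipid-mobilising zinc-alpha-2-glycoprotein, had 12.2 and 12.3 CPM, against 2.27 and 1.06 CPM (adjusted p = 7.99e-05). No library crossed between the groups. MUCL1, a small breast mucin, had 1013 and 1063 CPM in day 10 spheroids, against 165 and 91.0 CPM in monolayers. Its replicates agreed closely in spheroids and less well in monolayers, and its call (adjusted p = 0.00964) was lost without day 10 replicate 1 or replicate 2 (adjusted p = 0.0665 and 0.0786). Of 18 apocrine and milk-type secretory genes tested, 11 were called higher and 1 lower, and their median log2 fold change was 1.08. Without either day 10 library 9 were called higher. The exception was LTF, which encodes the milk iron binder lactoferrin and was low throughout, at 2 and 18 counts in day 10 spheroids and 88 and 54 counts in monolayers (adjusted p = 0.00396). LTF lies outside the rule for named genes and was picked after its values were seen.

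Other secreted proteins rose as well. The protease inhibitor TFPI2 had 13.6 and 12.2 CPM in day 10 spheroids, against 0.755 and 1.03 CPM in monolayers (adjusted p = 1.37e-06). SERPINA5, another protease inhibitor, had 8.02 and 10.9 CPM, against 0.637 and 0.470 CPM (adjusted p = 4.09e-06). Both were low in monolayers, though above the floor of 3 counts. LOXL4, a collagen-crosslinking lysyl oxidase, had 204 and 240.1 CPM, against 17.8 and 22.3 CPM (log2 fold change 3.47 ± 0.14 SE, adjusted p = 1.66e-07). TCN1, the vitamin B12 carrier haptocorrin, was by far the most abundant of these, with 4977 and 4606 CPM in day 10 spheroids and 759 and 1259 CPM in monolayers. No library of these 4 genes crossed between groups. The TCN1 call (adjusted p = 0.00914) was lost without day 10 replicate 1 or replicate 2 (0.07 and 0.0635) and with no count filter (0.0562). The cystatin genes CST1 and CST2 also rose (log2 fold changes 4.33 and 3.71), but they are near-identical copies that may share reads, so each value is uncertain, and both calls were lost without either day 10 library (adjusted p up to 0.0873 and 0.18). CST1 was also lost without monolayer replicate 2 (0.0513), and CST2 without either day 20 library (0.0932 and 0.0947), with the replicate block (0.0671), with no count filter (0.106) and in the fit of 4 libraries (0.0508). NOS3, the endothelial nitric oxide synthase, had 35.97 and 49.2 CPM, against 5.12 and 2.61 CPM (adjusted p = 0.000532). MGAT3, a glycosyltransferase of the secretory pathway, had 8.79 and 10.9 CPM, against 0.802 and 1.43 CPM (adjusted p = 3.81e-05).

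**Figure D2:**
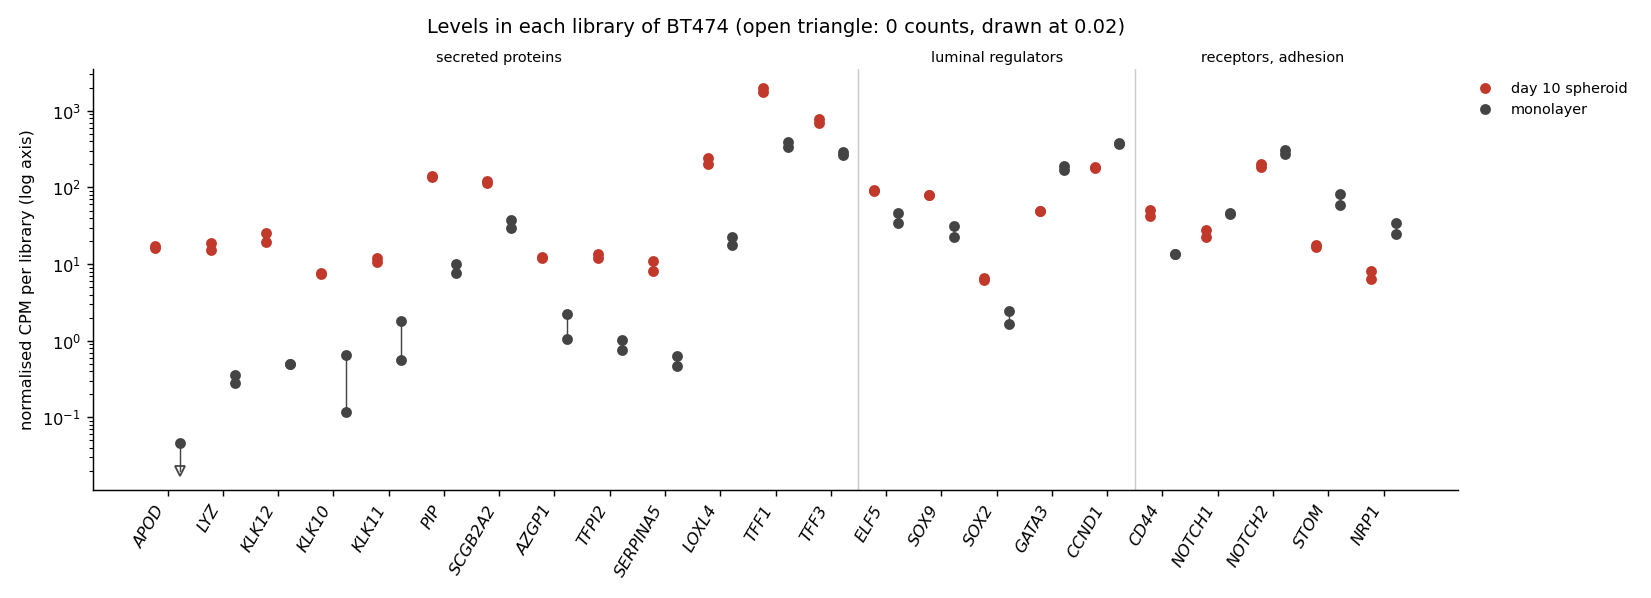
Normalised CPM on a log axis in each day 10 spheroid library (red, left of each pair) and each monolayer library (grey, right) for 23 genes, with a line joining the 2 replicates of a group and an open triangle for 0 counts. The 13 secreted proteins, ELF5, SOX9, SOX2 and CD44 lie higher in spheroids, and GATA3, CCND1, NOTCH1, NOTCH2, STOM and NRP1 lie lower, with no overlap for any of them.

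Luminal genes moved in both directions. GATA3, a transcription factor that maintains luminal identity, lies on chromosome 10 at 8045378 to 8075203 and fell to 49.7 and 49.3 CPM in day 10 spheroids, against 190.0 and 171 CPM in monolayers (log2 fold change -1.87 ± 0.12 SE, adjusted p = 8.21e-06). AGR2, a protein disulfide isomerase of the secretory pathway, had 233 and 223 CPM, against 387 and 394 CPM (adjusted p = 5.68e-05). In the other direction ELF5, a factor of the alveolar milk-secreting lineage, had 91.7 and 91.0 CPM in day 10 spheroids, against 34.1 and 46.3 CPM in monolayers (adjusted p = 0.000176). The groups did not overlap for any of these 3 genes.

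AGR3, a close relative of AGR2, went the opposite way to it, with 12.8 and 13.8 CPM in day 10 spheroids and 4.11 and 7.17 CPM in monolayers, though its call was lost without day 10 replicate 2 (adjusted p = 0.0533). Of 25 luminal markers tested, 6 were called higher and 7 lower, around a median of 0.04. Without day 10 replicate 1 or replicate 2, 3 were called lower in each case, and 4 without either day 20 library. FOXA1, a pioneer factor for steroid receptors, had 383 and 366 CPM, against 468 and 433 CPM (adjusted p = 0.0361). The FOXA1 call was lost in 6 of 17 alternatives, among them each fit without a day 10 or day 20 library (adjusted p up to 0.292). KRT7, a keratin of simple epithelia, had 755 and 812 CPM, against 1461 and 987 CPM, and was lost in 8 of 17 (up to 0.223), the same 4 left-out libraries among them. Of 14 basal markers tested, 3 were called higher and 2 lower (median -0.02), with the basement membrane laminin chain genes LAMA3 and LAMB3 among those that rose, and 1 was called higher without day 10 replicate 2. The LAMB3 call was lost without either day 10 library (adjusted p = 0.0842 and 0.11).

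Several secreted oestrogen receptor targets rose, and the receptor gene was not called. TFF1, a trefoil peptide that protects mucosal surfaces (chromosome 21, 42362282 to 42366594), had 1754 and 1959 CPM in day 10 spheroids, against 332 and 395 CPM in monolayers (log2 fold change 2.35 ± 0.10 SE, adjusted p = 1.66e-07). TFF3, its relative on the same chromosome (42311667 to 42315651), had 694 and 771 CPM, against 292 and 261 CPM (log2 fold change 1.40 ± 0.08 SE, adjusted p = 3.46e-06). Replicates of both genes were close and the groups well apart. IGFBP4, which binds insulin-like growth factors, and the chemokine CXCL12 rose as well, by 1.09 ± 0.10 and 1.40 ± 0.18 (SE, log2). CCND1, the G1 cyclin D1, fell to 184 and 181 CPM in day 10 spheroids, against 379.9 and 374 CPM in monolayers (log2 fold change -1.04 ± 0.07 SE, adjusted p = 8.21e-06). CA12, a carbonic anhydrase, fell too, with 61.7 and 76.2 CPM, against 126 and 149 CPM (adjusted p = 0.000275). Of 28 oestrogen receptor targets tested, 8 were called higher and 2 lower, with a median of 0.30. Without monolayer replicate 1 or replicate 2, 15 and 18 were called higher.

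Calls of the receptor genes differed with the monolayer library left out. ESR1, which encodes oestrogen receptor alpha, had 79.2 and 78.7 CPM in day 10 spheroids, inside the range of the monolayers at 66.3 and 104 CPM (log2 fold change -0.11 ± 0.18 SE, adjusted p = 0.754). Without monolayer replicate 1 it was called lower (adjusted p = 5.15e-05), and without monolayer replicate 2 it was called higher (0.25, adjusted p = 0.0157), each time against the 1 remaining monolayer, of which 1 lay above and 1 below both spheroid libraries. PGR, the progesterone receptor and itself an oestrogen target, had 994 and 1044 CPM, against 341 and 687 CPM, and was not called (adjusted p = 0.206), although it was without monolayer replicate 1 (1.24e-06) or replicate 2 (1.07e-15). None of the 6 called and higher oestrogen targets with a RefSeq promoter held the oestrogen response element searched for (GGTCA and TGACC with 3 bases between, both strands). It stood in 0 of the 20 tested members of the list with a promoter, called or not. Only 0.0732% of 27305 genes with a promoter held it, so its absence says nothing about the called genes.

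ERBB2 (chromosome 17, 39687914 to 39730426) remained among the most counted genes, with 5863 and 5892 CPM in day 10 spheroids, against 7422 and 6535 CPM in monolayers (log2 fold change -0.25 ± 0.08 SE, adjusted p = 0.0492). That call was marginal, and 10 of 17 alternatives lost it (adjusted p = 0.0508 to 0.256), among them the fits without monolayer replicate 1 and without each day 10 or day 20 library. Its neighbours in the amplified region differed in direction: of 23 genes tested, 8 were called higher and 3 lower, with a median of 0.25. RAPGEFL1 had 68.4 and 79.3 CPM in day 10 spheroids, against 23.4 and 33.6 CPM in monolayers (adjusted p = 0.000232). GSDMB, a pore-forming gasdermin, had 112 and 108 CPM, against 52.8 and 57.0 CPM (adjusted p = 0.000202). Without day 10 replicate 1 or replicate 2, 3 and 2 members were called higher, and 5 without either day 20 library. The 3 called lower became 0 without any single day 10 or day 20 library, and 5 and 7 without monolayer replicate 1 and replicate 2.

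Inhibitors of RAS and MAP kinase signalling differed in direction. Of 20 genes of the EGF receptor list, 4 were called higher and 6 lower (median -0.14), and without either day 10 library 0 were called lower, against 3 without monolayer replicate 1. The 4 called higher became 1 without either day 10 library and 2 without either day 20 library. SPRY4, an inhibitor of RAS signalling, had 7.75 and 8.43 CPM in day 10 spheroids, against 19.7 and 11.96 CPM in monolayers. SPRED1, another such inhibitor, had 5.32 and 5.63 CPM, against 11.4 and 8.20 CPM. DUSP6, the ERK phosphatase, went the other way, with 34.9 and 34.0 CPM, against 20.5 and 13.3 CPM (adjusted p = 0.00197). The SPRY4 and SPRED1 calls (adjusted p = 0.0105 and 0.013) were lost without either day 10 library and with limma on FPKM (adjusted p up to 0.104 and 0.129). EGFR and ERBB3, the other receptors of the panel, had log2 fold changes of 0.13 and 0.09 and were not called (adjusted p = 0.485 and 0.442).

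CD44, the hyaluronan receptor used as a surface marker of breast cancer stem cells, had 42.7 and 50.1 CPM in day 10 spheroids, against 13.4 and 13.7 CPM in monolayers, a log2 fold change of 1.77 ± 0.11 (SE, adjusted p = 5.35e-06). SOX9, a transcription factor of mammary progenitors, had 80.7 and 80.0 CPM, against 31.0 and 22.3 CPM (adjusted p = 4.68e-05). SOX2, a pluripotency factor, had 6.18 and 6.49 CPM, against 2.43 and 1.65 CPM (adjusted p = 0.00101). The tetraspanin TSPAN8 had 9.45 and 11.2 CPM, against 1.56 and 1.83 CPM (adjusted p = 1.5e-05). These 4 genes rose without overlap. The CD44 gene lies on chromosome 11 at 35138870 to 35232402.

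Other stem cell markers did not follow. ALDH1A1, an aldehyde dehydrogenase used to sort breast stem cells, had 10.9 and 11.9 CPM in day 10 spheroids, against 10.7 and 23.3 CPM in monolayers (adjusted p = 0.331, and 1.66e-07 without monolayer replicate 1). ALDH1A3, of the same family, fell to 1.35 and 1.196 CPM, against 3.61 and 2.70 CPM (adjusted p = 0.0106, and 0.0794 and 0.134 without day 10 replicate 1 and replicate 2). The surface markers PROM1 and CD24 and the drug-efflux pump ABCG2 were not called (adjusted p = 0.0601, 0.128 and 0.253), but ABCG2 was called without monolayer replicate 1 (6.19e-05), CD24 without monolayer replicate 2 (1.5e-06), and both with no count filter. PROM1 was called with limma-voom and with halved counts. Of 19 stem cell and pluripotency markers tested, 6 were called higher and 2 lower, with a median of 0.06, and 5 and 4 were called higher without day 10 replicate 1 and replicate 2. The directions were thus mixed within the list, with CD44, SOX2, SOX9 and TSPAN8 on one side and ALDH1A3 and the integrin ITGB1 on the other.

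Notch receptors differed among themselves. NOTCH1 had 22.4 and 28.1 CPM in day 10 spheroids, against 46.6 and 45 CPM in monolayers (adjusted p = 0.000967). NOTCH2 had 186 and 202 CPM, against 276 and 306 CPM (adjusted p = 0.00159). NOTCH3 was higher, with 302 and 349 CPM, against 243 and 266 CPM, a call lost without day 10 replicate 2 (adjusted p = 0.262) and with limma on FPKM (0.0598). Of 22 Notch genes tested, 1 was called higher and 3 lower (median 0.10), and 6 lower without monolayer replicate 2. Of 18 Wnt targets, 5 were called higher and 3 lower (median 0.19), with LEF1, a transcription factor that partners beta-catenin, at 8.21 and 9.51 CPM in day 10 spheroids, against 1.70 and 3.36 CPM in monolayers (adjusted p = 0.00141). Without either day 10 library 1 Wnt target was called higher, and without monolayer replicate 1, 8 were. The 3 called lower became 1 without day 10 replicate 2.

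Several genes downstream of bone morphogenetic proteins fell, some of them steeply. SMAD6, an inhibitory SMAD that the pathway itself induces, lies on chromosome 15 at 66702228 to 66782848 and had 3.14 and 3.92 CPM in day 10 spheroids, against 28.3 and 31.5 CPM in monolayers (log2 fold change -3.07 ± 0.30 SE, adjusted p = 0.000424). ATOH8, a transcription factor induced by BMP signalling, had 0.676 and 0.848 CPM, against 11.7 and 8.93 CPM, a log2 fold change of -3.73 ± 0.55 (SE, adjusted p = 0.00537). SMAD9, a BMP receptor substrate, had 0.242 and 0.389 CPM, against 1.96 and 2.42 CPM. The groups did not overlap for any of these genes, but the ATOH8 call was lost without any of the 4 libraries (adjusted p = 0.0735 to 0.106) and the SMAD9 call without day 10 replicate 1 (0.0519).

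TGFB3, a ligand of the TGF-beta family, had 34.0 and 30.3 CPM in day 10 spheroids, against 122 and 73.1 CPM in monolayers (adjusted p = 0.00472). SMAD7, an inhibitory SMAD like SMAD6, had 18.1 and 17.3 CPM, against 30.2 and 24.3 CPM, and its call was lost without either day 10 library (adjusted p = 0.0777 and 0.119). Of 24 genes of the BMP and TGF-beta list, 6 were called lower and 2 higher, with a median of -0.29. Without either day 10 library 3 were called lower. The 2 that rose, TGFBR2 and the pseudoreceptor BAMBI, had log2 fold changes of 0.55 and 0.46, and their calls were lost in 9 and 3 of 17 alternatives (adjusted p up to 0.407 and 0.12), the fits without either day 10 library among them.

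ID1, ID3 and ID4 encode inhibitors of helix-loop-helix factors and are standard BMP targets, and IGFBP3 encodes a binding protein of insulin-like growth factors. They are described here after their values were seen, because none was called in the fit of 6 libraries although the groups lay far apart. BOLA2B was picked in the same way, but its difference rests on day 10 replicate 1. It had 21.8 and 0.403 CPM in day 10 spheroids, against 0.354 and 0.118 CPM in monolayers. ID1 had 195 and 153 CPM in monolayers, 4.66 and 5.52 CPM in day 10 spheroids, and 26.7 and 0.961 CPM in day 20 spheroids. ID3 followed with 134 and 104 CPM in monolayers, 4.06 and 4.30 CPM at day 10, and 17.4 and 1.06 CPM at day 20. ID4 had 20.2 and 23.0 CPM, then 0.991 and 0.417 CPM, then 3.56 and 0.0520 CPM. Day 10 replicates were close for ID1 and ID3 and further apart for ID4, and in each gene the 2 day 20 libraries lay on either side of the day 10 level.

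IGFBP3 had 33.9 and 66.5 CPM in monolayers, 0.797 and 0.973 CPM at day 10, and 5.23 and 0.519 CPM at day 20. The log2 fold changes of day 10 spheroids over monolayers were -5.08 ± 1.55 for ID1, -4.83 ± 1.33 for ID3, -5.03 ± 1.45 for ID4 and -5.80 ± 1.19 for IGFBP3 (SE), at adjusted p of 0.157, 0.131, 0.133 and 0.0716. In a fit of the 4 monolayer and day 10 libraries alone the adjusted p was 1.65e-06 for ID1, 1.65e-06 for ID3, 6.66e-05 for ID4 and 0.000706 for IGFBP3. All 4 were also called without day 20 replicate 1, without day 20 replicate 2, with DESeq2 and with limma on FPKM. The day 20 replicates enter the estimate of spread in the fit of 6 libraries.

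**Figure D3:**
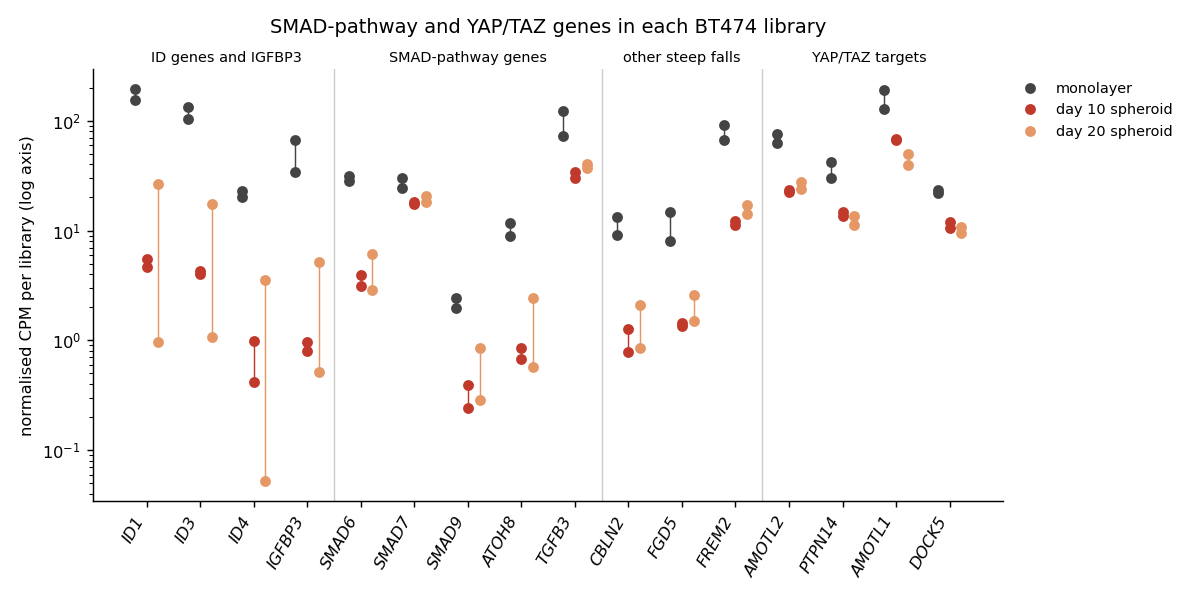
Normalised CPM on a log axis in each monolayer (grey), day 10 spheroid (red) and day 20 spheroid (orange) library for 16 genes, with a line joining the 2 replicates of a group. Monolayers lie highest throughout, and the day 20 replicates of the ID genes are far apart, at 26.7 and 0.961 CPM for ID1, while those of AMOTL2 are close, at 27.6 and 23.9 CPM.

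Most YAP and TAZ targets tested fell. AMOTL2, an angiomotin that binds YAP and is itself a target, had 22.5 and 23.4 CPM in day 10 spheroids, against 75.5 and 63.1 CPM in monolayers (log2 fold change -1.59 ± 0.12 SE, adjusted p = 1.72e-05). PTPN14, a phosphatase that holds YAP in the cytoplasm, had 13.6 and 14.6 CPM, against 30.2 and 41.9 CPM (adjusted p = 0.000304). DOCK5, an exchange factor for RAC, had 11.9 and 10.5 CPM, against 22.1 and 23.2 CPM (adjusted p = 0.000569). Monolayers stood well above spheroids in all 3. AMOTL1 had 67.0 and 68.9 CPM, against 127 and 190.1 CPM, with a call that was lost without day 10 replicate 1 (adjusted p = 0.0502). Of 20 members tested, 12 were called lower and 2 higher, and 18 lay below 0, with a median of -0.57. Leaving out either day 10 library left 6 called lower. The 2 that rose, GADD45B and GADD45A, are stress-response genes, with log2 fold changes of 1.04 and 0.68, of which the GADD45A call was lost without day 10 replicate 2 (adjusted p = 0.147).

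Adhesion genes moved in both directions. COL17A1, a hemidesmosomal collagen, had 9.23 and 9.58 CPM in day 10 spheroids, against 1.75 and 2.68 CPM in monolayers (adjusted p = 0.000136). COL7A1, the collagen of anchoring fibrils, had 47.3 and 39.9 CPM, against 14.9 and 13.0 CPM (adjusted p = 2.66e-05). LAMA3 had 4.90 and 6.30 CPM, against 1.04 and 1.08 CPM (adjusted p = 0.00012). These 3 components of the epithelial anchorage to the basement membrane rose without overlap. LAMB1, a chain of other laminins, fell to 50.3 and 49.2 CPM, against 108 and 85.0 CPM (adjusted p = 0.000263). Of 26 matrix genes tested, 8 were called higher and 4 lower (median 0.14), and 5 and 4 were called higher without day 10 replicate 1 and replicate 2. The 4 called lower became 2 and 1 in the same fits, and 7 without either monolayer library.

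Of 14 integrins tested, 0 were called higher and 3 lower (median -0.10), with ITGB1, the common beta chain, at 257 and 236 CPM in day 10 spheroids, against 331 and 348 CPM in monolayers (adjusted p = 0.00189, and 0.0569 without day 10 replicate 2). The count of integrins called lower was 1 and 0 without day 10 replicate 1 and replicate 2, and 5 without monolayer replicate 2. Of 27 junction genes, 6 were called higher and 2 lower (median -0.08), and 3 and 4 were called higher without day 10 replicate 1 and replicate 2. The claudin CLDN3, a tight junction protein, had 109 and 118 CPM, against 79.7 and 59.3 CPM (adjusted p = 0.00311). NECTIN4, an adhesion receptor, had 153 and 148 CPM, against 96.0 and 103 CPM (adjusted p = 0.00046). E-cadherin (CDH1) and EPCAM were not called, at log2 fold changes of -0.08 ± 0.06 and 0.06 ± 0.07 (SE). Of 12 mesenchymal genes tested, 2 were called higher and 0 lower (median -0.26), namely COL1A1 and VIM. VIM, which encodes the intermediate filament vimentin, had 31.9 and 27.5 CPM in day 10 spheroids, against 15.2 and 21.6 CPM in monolayers. Both calls were lost without either day 10 library (adjusted p up to 0.237 for COL1A1 and 0.147 for VIM), and that of COL1A1 with limma on FPKM (0.0592). Of 16 metalloproteinase and plasminogen genes, 1 was called higher and 2 lower (median -0.19), with ADAMTS1 at 1.64 and 1.77 CPM, against 7.13 and 8.27 CPM (adjusted p = 0.00128).

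Of 17 squamous differentiation genes tested, 6 were called higher and 1 lower, with a median of 1.03, and the kallikreins KLK7, KLK10 and KLK11 made up 3 of the 6. The others were the keratin KRT16, the transglutaminase TGM3 and CNFN, and without day 10 replicate 2 all 3 were lost (adjusted p = 0.0767, 0.0909 and 0.314), which left 3 called higher. The CNFN call (adjusted p = 0.0333) was also lost without any other single library except monolayer replicate 1, and in the fit of 4 libraries (0.0543 to 0.0855). The member that fell was KRT1, with 2 and 4 counts in day 10 spheroids and 52 and 28 counts in monolayers, a ratio of 0.0543 (95% exact counting interval 0.0194 to 0.124), with a call (adjusted p = 0.0119) that was lost without either day 10 library (0.0943 and 0.114). CNFN, and KRT1 in this comparison, lie outside the rule for named genes and were picked after their values were seen. Of 11 mucins and CEACAM glycoproteins, 2 were called higher and 0 lower (median 0.28). MUC1, a membrane mucin, had 39.8 and 47.0 CPM in day 10 spheroids, against 23.1 and 27.1 CPM in monolayers (adjusted p = 0.00217), and the adhesion glycoprotein CEACAM1 rose by 0.90 ± 0.15 (log2, SE).

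**Figure D4:**
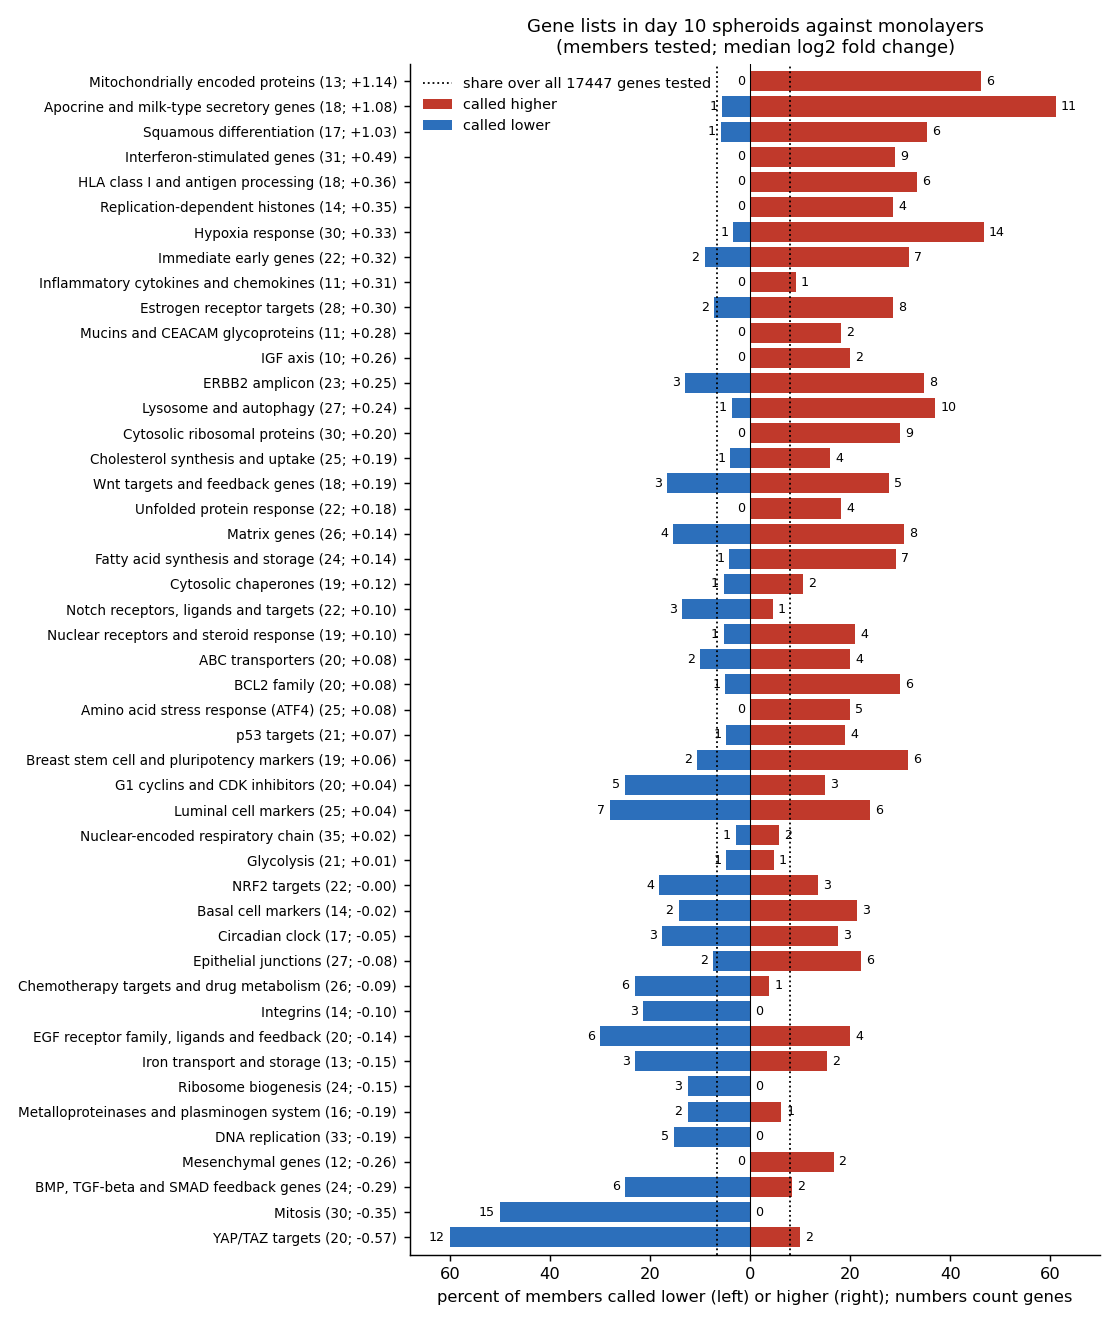
Percent of tested members called lower (blue, left) or higher (red, right) in day 10 spheroids for the gene lists with at least 10 members tested, ordered by median log2 fold change, with counts of genes at the bar ends and dotted lines at 6.57% lower and 8.02% higher over all genes tested. Apocrine genes (11 of 18 higher) stand near the top, and mitosis (15 of 30 lower) and YAP/TAZ targets (12 of 20 lower) stand at the bottom.

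Of 30 mitosis genes tested, 15 fell. MKI67, the Ki-67 antigen of cycling cells, had 73.0 and 79.3 CPM in day 10 spheroids, against 115 and 144 CPM in monolayers (log2 fold change -0.77 ± 0.11 SE, adjusted p = 0.00104). CENPF, a kinetochore protein, had 119 and 125 CPM, against 185 and 208 CPM (adjusted p = 0.000291). ASPM, a spindle-pole protein, had 89.6 and 84.2 CPM, against 132 and 142 CPM (adjusted p = 0.000391). Spheroid libraries lay below monolayers in each. PLK1, the mitotic polo kinase, had 60.3 and 61.7 CPM, against 102 and 77.9 CPM, with a call that was lost without either day 10 library (adjusted p = 0.0951 and 0.0836). No library crossed between the groups in these 4 genes.

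No mitosis gene was called higher (0 of 30), and all 30 lay below 0 with a median of -0.35. Without day 10 replicate 1 or replicate 2, 5 and 3 were called lower. Of 33 DNA replication genes, 5 were called lower and 0 higher (median -0.19), and 31 lay below 0. That count was 0 without either day 10 library, 20 without monolayer replicate 1 and 2 without either day 20 library. TOP2A, the replication-linked topoisomerase that anthracyclines target, was not called (adjusted p = 0.128), though it was without monolayer replicate 1 (0.00499), while TOP2B, its paralogue, fell to 182 and 171 CPM in day 10 spheroids, against 239.5 and 267 CPM in monolayers (adjusted p = 0.0013).

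Some CDK inhibitor genes fell. CDKN1A, which encodes p21, had 16.6 and 20.1 CPM in day 10 spheroids, against 31.0 and 36.6 CPM in monolayers (adjusted p = 0.00288, and 0.054 without day 10 replicate 1), and CDKN1B and CDKN2C were lower too (log2 fold changes -0.45 and -0.53, both calls lost without either day 10 library, adjusted p up to 0.0931 and 0.167). The antiproliferative genes BTG1 and BTG2 rose, with BTG2 at 134 and 127 CPM, against 66.3 and 49.95 CPM (adjusted p = 0.00038). Of 20 G1 cyclins and CDK inhibitors, 3 were called higher and 5 lower (median 0.04), and 1 and 2 were called lower without day 10 replicate 1 and replicate 2, and 6 higher without monolayer replicate 2. Of 14 replication-dependent histone genes, 4 were called higher and 0 lower (median 0.35), and 1 without either day 10 library and 2 without either day 20 library. Histone genes share near-identical reads and only their poly(A) RNA was sequenced, so these values are uncertain and do not measure all histone RNA. Of 24 ribosome biogenesis genes, 3 were called lower and 0 higher (median -0.15), a count that was 0 without any single day 10 or day 20 library and in the fit of 4 libraries, and 9 and 8 without monolayer replicate 1 and replicate 2. Of 30 cytosolic ribosomal proteins 9 were called higher and 0 lower (median 0.20), a count that was 0 without either day 10 library, 19 and 14 without monolayer replicate 1 and replicate 2, 3 without either day 20 library and 3 in the fit of 4 libraries.

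The cell cycle homology region is a promoter element, TTTGAA or TTCGAA, through which mitotic genes are repressed in resting cells. It was searched for after the values were seen, on both strands of RefSeq promoters (GRCh38.p14, 250 bases before to 50 after a start). At least 1 of the 2 hexamers stood in 9 of the 12 called mitosis genes with a promoter. It stood in 17 of the 24 tested members of the list with one, called or not, and in 19.5% of the 27305 genes with a promoter. The promoters of CENPF and PLK1 are shown because both genes are described above and hold the element, which is in capitals. A match of letters describes the sequence and shows no binding.
CENPF, chr1:214602945-214603244, plus strand: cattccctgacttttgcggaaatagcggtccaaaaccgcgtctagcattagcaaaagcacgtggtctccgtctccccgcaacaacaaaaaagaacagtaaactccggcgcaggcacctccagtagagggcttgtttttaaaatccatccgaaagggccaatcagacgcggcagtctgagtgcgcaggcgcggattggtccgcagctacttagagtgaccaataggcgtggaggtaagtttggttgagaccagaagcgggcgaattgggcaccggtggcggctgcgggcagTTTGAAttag
PLK1, chr16:23678639-23678938, plus strand: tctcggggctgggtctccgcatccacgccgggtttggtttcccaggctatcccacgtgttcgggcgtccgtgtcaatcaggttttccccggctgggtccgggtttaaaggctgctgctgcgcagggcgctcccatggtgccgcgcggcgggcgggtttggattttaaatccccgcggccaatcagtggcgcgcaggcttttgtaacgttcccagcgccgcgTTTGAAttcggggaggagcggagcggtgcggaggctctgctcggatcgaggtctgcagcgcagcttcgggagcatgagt

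Of 30 hypoxia-response genes tested, 14 rose. DDIT4, an mTOR inhibitor induced by low oxygen and other stress, had 72.3 and 90.4 CPM in day 10 spheroids, against 38.2 and 33.7 CPM in monolayers (log2 fold change 1.18 ± 0.12 SE, adjusted p = 0.000109). VEGFA, the angiogenic growth factor, had 101 and 109 CPM, against 56.9 and 51.1 CPM (adjusted p = 0.000119). ADM, the vasodilator adrenomedullin, had 7.80 and 7.54 CPM, against 3.42 and 3.78 CPM (adjusted p = 0.00236). Spheroids were above monolayers in all 3. NDRG1, a stress-response gene, had 144 and 184 CPM, against 88.0 and 78.9 CPM (adjusted p = 0.000391, and 0.0734 without monolayer replicate 2). The median over the hypoxia list was 0.33, and the 1 member called lower was CA12. Leaving out day 10 replicate 1 or replicate 2 left 8 and 6 called higher.

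Of the 14 called and higher hypoxia genes, 10 had a RefSeq promoter and 9 of those held a hypoxia response element core (ACGTG or GCGTG, both strands). A core stood in 23 of the 26 tested members of the list with a promoter, called or not. The same letters stood in 52.4% of the 27305 genes with a promoter and in 68.9% of the tested genes with one. The promoters of DDIT4, with 4 matches, and ADM, with 1, are shown as the genes with values above, with the cores on the printed or the opposite strand in capitals.
DDIT4, chr10:72273674-72273973, plus strand: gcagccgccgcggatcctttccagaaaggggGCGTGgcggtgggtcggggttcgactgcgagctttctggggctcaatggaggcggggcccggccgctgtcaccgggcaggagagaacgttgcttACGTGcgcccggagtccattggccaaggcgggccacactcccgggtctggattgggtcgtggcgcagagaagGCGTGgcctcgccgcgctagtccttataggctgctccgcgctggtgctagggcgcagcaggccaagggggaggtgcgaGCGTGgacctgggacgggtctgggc
ADM, chr11:10304823-10305122, plus strand: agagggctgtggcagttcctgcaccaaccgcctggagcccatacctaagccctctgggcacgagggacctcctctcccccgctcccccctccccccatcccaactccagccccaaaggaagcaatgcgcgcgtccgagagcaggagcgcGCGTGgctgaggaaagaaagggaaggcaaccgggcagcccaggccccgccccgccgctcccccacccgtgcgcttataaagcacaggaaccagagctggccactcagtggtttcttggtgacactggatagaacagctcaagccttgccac

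Glycolysis genes gave no more calls than genes in general: of 21 enzymes and transporters, 1 was called higher and 1 lower (median 0.01). That is 9.52% of the list, against 14.6% of all genes tested. The one that fell was HK1, the housekeeping hexokinase, with 319.8 and 327 CPM in day 10 spheroids, against 515 and 476 CPM in monolayers (adjusted p = 0.000236). The one that rose was ENO2, an enolase, with 17.9 and 19.8 CPM, against 13.8 and 9.45 CPM, a call lost without either day 10 library (adjusted p = 0.0775 and 0.173) and with limma on FPKM (0.0553). Of 35 nuclear-encoded respiratory chain genes, 2 were called higher and 1 lower (median 0.02), which is 8.57% and also below that share.

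The 13 mitochondrially encoded proteins, which build the respiratory chain from the mitochondrial genome, all lay above 0 with a median of 1.14, and 6 were called. MT-ND3 had 1554 and 1164 CPM in day 10 spheroids, against 676 and 664 CPM in monolayers (adjusted p = 0.000263), and MT-CO1 had 9367 and 6798 CPM, against 3869 and 4301 CPM (adjusted p = 0.0476). MT-ND3 lies outside the rule for named genes and was picked after its values were seen. It had the lowest adjusted p of the 13 genes. In every one of the 13 genes day 10 replicate 1 stood above replicate 2. Without day 10 replicate 1 or replicate 2, 9 and 11 were called, and without either monolayer library 0 were. The MT-CO1 call was also lost without day 10 replicate 1 (adjusted p = 0.0884), with limma-voom (0.119) and with no count filter (0.228).

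Lipid synthesis genes rose in part. SCD, the stearoyl-CoA desaturase, had 3354 and 3503 CPM in day 10 spheroids, against 1391 and 1928 CPM in monolayers (adjusted p = 0.000688). FADS2, a fatty acid desaturase, had 981 and 995 CPM, against 687 and 529 CPM (adjusted p = 0.00128). SREBF1, the transcription factor of the pathway, had 318 and 329 CPM, against 229.8 and 179 CPM (adjusted p = 0.00182). The groups did not overlap, nor did they for THRSP, a lipogenic regulator, which had 2.90 and 3.71 CPM, against 0.142 and 0.705 CPM (adjusted p = 0.00279). CPT1A, which carries fatty acids into mitochondria for oxidation, fell to 279 and 278 CPM, against 415 and 414 CPM (adjusted p = 0.000287). Of 24 fatty acid genes 7 were called higher and 1 lower (median 0.14), and of 25 cholesterol genes 4 higher and 1 lower (median 0.19). Without either day 10 library 4 fatty acid genes were called higher, and without monolayer replicate 2, 11 were. The cholesterol count of 4 was 1 and 0 without day 10 replicate 1 and replicate 2, and 19 without monolayer replicate 2.

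Several interferon-stimulated genes rose. IFI6, a mitochondrial antiviral protein, had 30.1 and 32.3 CPM in day 10 spheroids, against 6.42 and 9.75 CPM in monolayers (log2 fold change 1.95 ± 0.19 SE, adjusted p = 0.000103). OAS1, a sensor of double-stranded RNA, had 5.12 and 5.63 CPM, against 0.425 and 0.987 CPM (adjusted p = 0.000209). ISG15, a ubiquitin-like modifier, had 6.26 and 5.49 CPM, against 1.89 and 2.19 CPM (adjusted p = 0.00102). The monolayers were below the spheroids in each. Of 31 members tested, 9 were called higher and 0 lower, with 27 above 0 and a median of 0.49. Leaving out either day 10 library left 4 called higher, and leaving out monolayer replicate 2 gave 21.

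Some antigen presentation genes rose too. B2M, the light chain of HLA class I, had 229 and 241 CPM in day 10 spheroids, against 133 and 163 CPM in monolayers (adjusted p = 0.000887). PSMB8, a subunit of the immunoproteasome, had 4.06 and 4.23 CPM, against 1.70 and 1.53 CPM (adjusted p = 0.00231). Of 18 members tested, 6 were called higher and 0 lower (median 0.36), 2 without either day 10 library and 10 without monolayer replicate 2. Reads of the HLA heavy chain genes may be shared between copies, so their values are uncertain. Of 11 cytokine and chemokine genes tested, CXCL17, an epithelial chemokine, was called higher, with 44.1 and 43.4 CPM, against 21.1 and 19.1 CPM, and 0 were called lower (median 0.31).

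Interferon acts on these genes through a response element that was searched for, after the values were seen, as GAAA and GAAA with 2 bases between on both strands. It stood in 7 of the 8 called genes with a RefSeq promoter and in 19 of the 23 tested members with one, against 4.38% of the 27305 genes with a promoter. The promoters of ISG15, with 2 overlapping matches, and IFI6, with 3, are shown because both genes are described above, with the element in capitals.
ISG15, chr1:1013247-1013546, plus strand: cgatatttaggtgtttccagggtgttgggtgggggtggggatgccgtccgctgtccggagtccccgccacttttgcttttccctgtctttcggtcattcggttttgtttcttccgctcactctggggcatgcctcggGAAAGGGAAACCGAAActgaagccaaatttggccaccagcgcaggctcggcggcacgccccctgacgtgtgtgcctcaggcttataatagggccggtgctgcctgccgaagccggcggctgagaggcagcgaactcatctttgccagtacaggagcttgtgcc
IFI6, chr1:27672143-27672442, minus strand: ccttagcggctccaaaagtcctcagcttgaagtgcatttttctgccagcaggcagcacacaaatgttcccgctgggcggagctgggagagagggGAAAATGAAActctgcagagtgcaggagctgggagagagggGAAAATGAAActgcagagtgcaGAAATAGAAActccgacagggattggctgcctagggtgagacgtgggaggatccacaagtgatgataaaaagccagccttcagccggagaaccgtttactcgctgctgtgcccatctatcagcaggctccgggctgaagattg

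**Figure D5:**
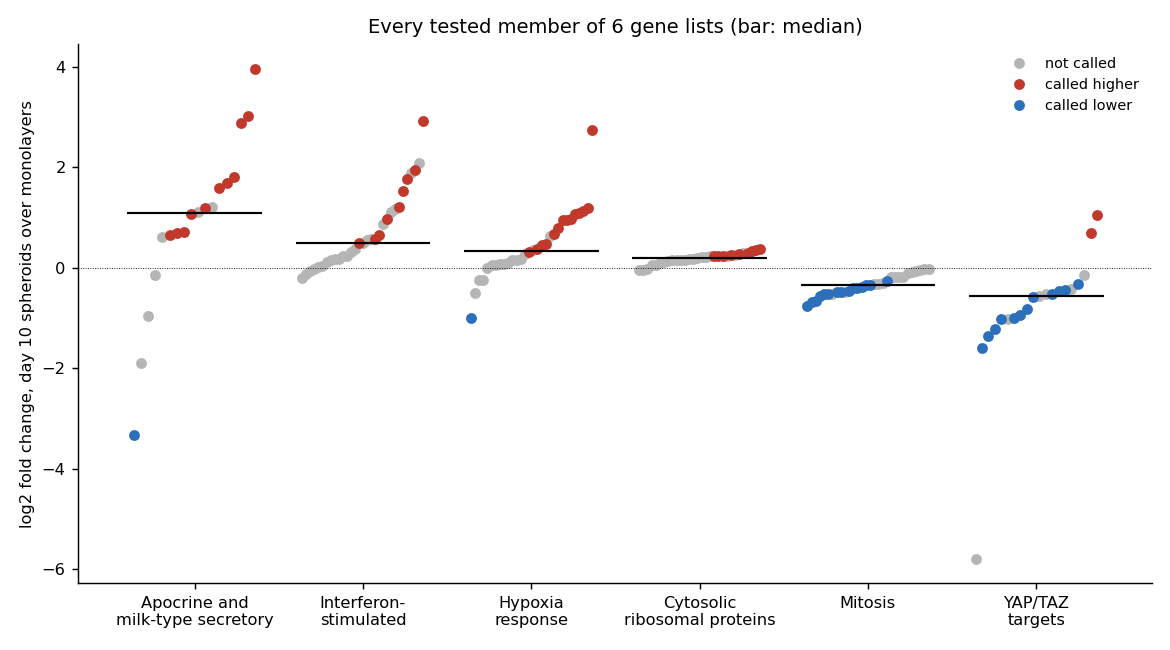
Log2 fold change of day 10 spheroids over monolayers for every tested member of 6 gene lists, ordered by value within each list, with called genes in red (higher) and blue (lower), uncalled genes in grey and a bar at the median. Medians run from 1.08 (apocrine) over 0.49 (interferon), 0.33 (hypoxia) and 0.20 (ribosomal proteins) to -0.35 (mitosis) and -0.57 (YAP/TAZ), and the grey point near -6 is IGFBP3, listed as a YAP/TAZ target.

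Lysosome and autophagy genes were called higher in 10 of 27 members and lower in 1 (median 0.24), with 7 and 4 called higher without day 10 replicate 1 and replicate 2. GRN, the lysosomal protein progranulin, had 389 and 442 CPM in day 10 spheroids, against 219 and 251 CPM in monolayers (adjusted p = 0.000171). ULK1, the kinase that starts autophagy, had 265 and 285 CPM, against 169.8 and 189 CPM (adjusted p = 0.000492). TFEB, the transcription factor of the lysosome, was the member that fell, with 1.14 and 1.196 CPM, against 3.56 and 2.26 CPM, and its call was lost without either day 10 library and with limma on FPKM (adjusted p up to 0.143).

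HSPB1, the small heat shock protein HSP27, was among the more abundant genes that rose, with 3417 and 4064 CPM in day 10 spheroids and 1541 and 1689 CPM in monolayers (log2 fold change 1.21 ± 0.09 SE, adjusted p = 1.73e-05). HSPA1B, whose near-identical copy HSPA1A may share its reads, rose by 0.63 ± 0.08 (log2, SE). Of 19 cytosolic chaperones, 2 were called higher and 1 lower (median 0.12), which is 15.8%, near the 14.6% over all genes tested. Of 22 unfolded protein response genes, 4 were called higher and 0 lower (median 0.18), a count that was 0 and 1 without day 10 replicate 1 and replicate 2, and 8 and 11 without monolayer replicate 1 and replicate 2. Of 25 amino acid stress genes, 5 were called higher and 0 lower (median 0.08), the count being 3 and 2 without day 10 replicate 1 and replicate 2, and 9 and 11 without monolayer replicate 1 and replicate 2.

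Of 21 p53 targets, 4 were called higher and 1 lower (median 0.07), and the one that fell was CDKN1A, with 7 called higher without either monolayer library. Of 20 BCL2 family genes, 6 were called higher and 1 lower (median 0.08), and 2 higher without either day 10 library. PMAIP1, a death-promoting member, had 35.99 and 35.98 CPM in day 10 spheroids, against 14.7 and 20.1 CPM in monolayers (adjusted p = 0.000651). BBC3, of the same class, had 32.7 and 34.7 CPM, against 22.2 and 20.98 CPM (adjusted p = 0.0016). The survival gene BCL2 fell to 13.3 and 13.8 CPM, against 21.97 and 31.3 CPM (adjusted p = 0.00228).

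Immediate early genes, the rapid transcriptional response to stimuli, were called higher in 7 of 22 and lower in 2 (median 0.32), and 4 were called higher without either day 10 library, and 11 without either monolayer library. JUN, a subunit of the AP-1 factor, had 154 and 169.9 CPM in day 10 spheroids, against 96.3 and 88.8 CPM in monolayers (adjusted p = 0.000116). JUND, another subunit, had 172 and 182 CPM, against 99.5 and 100.4 CPM (adjusted p = 5.49e-05). DUSP2, a phosphatase of MAP kinases, fell to 1.45 and 1.57 CPM, against 7.03 and 8.53 CPM (adjusted p = 8.07e-05). Of 22 NRF2 targets, 3 were called higher and 4 lower (median -0.003). Of the NRF2 targets 1 was called higher without day 10 replicate 2 and 8 without monolayer replicate 2, and the count called lower was 1 without either day 10 library and 7 without monolayer replicate 1. OSGIN1, an oxidative stress response gene, had 40.4 and 40.8 CPM, against 20.6 and 17.0 CPM (adjusted p = 0.000109). NQO1, a quinone reductase, had 186 and 196 CPM, against 280.4 and 283 CPM (adjusted p = 0.000395). The 3 metallothioneins tested gave no call (median -0.74).

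Drug-related genes gave calls in both directions. Of 26 chemotherapy targets and drug-metabolising genes, 1 was called higher and 6 lower (median -0.09), with 2 lower without either day 10 library, 3 without either day 20 library and 11 without monolayer replicate 1. TUBB6, a beta-tubulin isotype, had 13.8 and 13.2 CPM in day 10 spheroids, against 29.8 and 25.2 CPM in monolayers (adjusted p = 0.000687). Of 20 ABC transporters, 4 were called higher and 2 lower (median 0.08), and 2 higher without day 10 replicate 1. ABCA12, a lipid transporter, had 78.4 and 90.02 CPM, against 25.9 and 32.3 CPM (adjusted p = 5.68e-05). ABCC3, an organic anion and drug exporter, fell to 59.6 and 55.6 CPM, against 332 and 186 CPM, a call lost without either day 10 library and with no count filter (adjusted p = 0.0821 to 0.121). ABCB1, the multidrug pump, was near the floor, with 67 counts in the day 10 libraries and 9 in the monolayers (ratio 5.39, 95% exact counting interval 2.68 to 12.3), and was not called (adjusted p = 0.0503), with a call in 8 of 16 alternatives.

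Of 13 iron genes, 2 were called higher and 3 lower (median -0.15), with SLC40A1, the iron exporter ferroportin, at 51.0 and 49.6 CPM in day 10 spheroids, against 98.7 and 98.5 CPM in monolayers (adjusted p = 4e-05), and 5 were called lower without monolayer replicate 1. Of 10 genes of the insulin-like growth factor axis, 2 were called higher and 0 lower (median 0.26). Of 17 clock genes, 3 were called higher and 3 lower (median -0.05), with HLF at 1.52 and 1.32 CPM, against 5.05 and 8.32 CPM (adjusted p = 0.00102). Clock genes called higher numbered 1 and 0 without day 10 replicate 1 and replicate 2, with 1 called lower each time, and 5 were called lower without monolayer replicate 2. Of 19 nuclear receptor genes, 4 were called higher and 1 lower (median 0.10), with PPARA, the fatty acid-sensing receptor, at 3.14 and 3.52 CPM, against 0.849 and 1.25 CPM (adjusted p = 0.00224). The count of nuclear receptor genes called higher was 2 without any single day 10 or day 20 library, and 8 and 7 without monolayer replicate 1 and replicate 2. Of the 2 fibroblast, 4 endothelial and 2 leukocyte markers that passed the count filter, COL1A1, ENG and LYZ were called higher, of which COL1A1 and ENG were lost without either day 10 library (adjusted p up to 0.237 and 0.225) and with limma on FPKM (0.0592 and 0.0513).

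Further steep falls were in genes of other functions. FREM2, an extracellular matrix protein of epithelia, had 11.3 and 12.3 CPM in day 10 spheroids, against 67.2 and 91.4 CPM in monolayers (log2 fold change -2.75 ± 0.16 SE, adjusted p = 2.69e-06). CBLN2, a secreted synaptic organiser, had 1.28 and 0.778 CPM, against 9.06 and 13.3 CPM (adjusted p = 0.000459). FGD5, an exchange factor for CDC42, had 1.35 and 1.43 CPM, against 14.7 and 7.96 CPM (adjusted p = 0.000225). No library crossed between the groups. STOM, a membrane scaffold protein, had 16.9 and 17.6 CPM, against 59.8 and 82.4 CPM (adjusted p = 0.000694). NRP1, a co-receptor for semaphorins and VEGF, had 8.16 and 6.39 CPM, against 24.8 and 34.7 CPM (adjusted p = 7.09e-05). In all 5 of these genes the highest spheroid library was well below the lowest monolayer library. PRRT1B, DNAJC6, SLC16A6 and PTCHD1 were called lower with log2 fold changes of -2.92, -2.49, -1.99 and -1.98.

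Among long noncoding RNAs, AC078950.1 had 8.94 and 10.6 CPM in day 10 spheroids, against 0.330 and 0.893 CPM in monolayers (adjusted p = 2.93e-05). AC007681.1 had 8.89 and 8.09 CPM, against 1.63 and 2.12 CPM (adjusted p = 5.47e-05), and LINC01411 rose by 2.01 ± 0.20 (log2, SE). LINC01128 fell, to 19.3 and 17.3 CPM, against 41.9 and 30.9 CPM (adjusted p = 0.00177). Of 927 long intergenic RNAs tested, 48 were called higher and 14 lower, both smaller shares than the 8.02% and 6.57% over all genes tested. The strand setting of the counting is not given, so the 1059 antisense genes tested, with 26 called higher and 11 lower, cannot be told apart from the genes they overlap. The antisense counts were smaller shares than over all genes as well.

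Levels at day 20 were compared with day 10 directly, in the same fit. Of 17447 genes, 27 were called (0.155%), 6 higher and 21 lower at day 20, and 1719 had an unadjusted p under 0.05. Of the 1400 genes called higher at day 10, 1319 had both day 20 libraries above both monolayers, and of the 1147 called lower, 1111 had both below. These genes were picked against the same monolayers, in a fit that held the day 20 libraries. The share over all genes was not counted, so these shares are no test of persistence. Of all 2547 called genes, 1476 changed from day 10 to day 20 in the direction opposite to their day 10 effect. Those 2 changes share the day 10 libraries. Among the named genes 5 were called between the days. APOD had 6.47 and 6.93 CPM at day 20, against 17.3 and 16.4 CPM at day 10 (log2 -1.33, adjusted p = 0.023). MX1, an antiviral GTPase, had 3.18 and 3.04 CPM at day 20, against 7.71 and 6.87 CPM at day 10, which is the level of the monolayers at 3.11 and 3.17 CPM. NDRG1 likewise had 75.2 and 85.2 CPM at day 20, against 144 and 184 CPM at day 10, while DDIT4 had 131 and 146 CPM at day 20, against 72.3 and 90.4 CPM at day 10. TUBB6 had 7.93 and 6.57 CPM at day 20, against 13.8 and 13.2 CPM at day 10 (log2 -0.90, adjusted p = 0.0418). NDRG1 and DDIT4, both of the hypoxia list, thus moved in opposite directions between the days. The count of 27 was 10 and 1 without day 10 replicate 1 and replicate 2, 3 and 4 without day 20 replicate 1 and replicate 2, and 1230 and 1212 without monolayer replicate 1 and replicate 2.

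Whether the day 10 effect differed from that in HCC1806 was tested in 12 libraries, where 3505 of 20929 genes had an unadjusted p under 0.05 and 282 (1.35%) were called, 82 with a higher and 200 with a lower effect in BT474. KLK12 had 19.4 and 25.6 CPM in BT474 day 10 spheroids and 0.503 and 0.499 CPM in BT474 monolayers on the scale of that fit, against 0.212 and 0.0263 CPM in HCC1806 day 10 spheroids and 0.160 and 0.137 CPM in HCC1806 monolayers (difference of log2 effects 5.75 ± 0.87 SE, adjusted p = 0.0264). TFCP2L1, an epithelial transcription factor, had 3.86 and 5.93 CPM in BT474 day 10 spheroids and 0.0957 and 0.237 CPM in BT474 monolayers, against 15.5 and 13.8 CPM in HCC1806 day 10 spheroids and 17.8 and 19.3 CPM in HCC1806 monolayers (5.19 ± 0.53 SE, adjusted p = 0.0073). In HCC1806 KLK12 was near the floor in all 4 libraries, and TFCP2L1 was slightly lower in spheroids than in monolayers. This count moved with every library left out: 6279 genes were called without HCC1806 monolayer replicate 1, 10093 without replicate 2, and 8 to 61 without any other single library. Line and medium (RPMI for HCC1806) cannot be told apart.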

How the data were processed

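Poly(A) RNA of each BT474 culture was sequenced in 150 bp pairs, per the labels' protocols. Reads were aligned with HISAT2 2.2.1 to GRCh38 (hg38) and counted per gene with featureCounts 2.0.6, per the submitters' processing notes. The authors deposited whole-number counts per gene and, separately, FPKM values; the strand setting, and whether the replicates were separate cultures, are not given in the sources used here. The members and gene lists were chosen with earlier results of these data known. The 6 BT474 libraries (2 per group) were fitted with edgeR 4.0.16 in R 4.3.3 (robust quasi-likelihood F test, TMM scaling, filterByExpr with a minimum count of 10 and total of 15), and p-values were adjusted by Benjamini and Hochberg over all 17447 genes tested. Calls need an adjusted p under 0.05. Standard errors are the log2 fold change divided by the root of F. Normalised CPM were computed from the deposited counts with TMM-scaled totals. The deposited FPKM entered 1 alternative, limma 3.58.1 on log2(FPKM + 0.5), a scale that understates the change of low genes. DESeq2 1.42.0, limma-voom, other scalings and filters, halved counts, left-out libraries, a replicate block, a fit of 4 libraries and a fit of 12 libraries were the other alternatives. Even values outnumbered odd ones among low counts, by 1.57 to 1.73 times in BT474, so a fragment may have been counted per mate; intervals and floors cover counting error only and are then too narrow. Named genes are the 12 highest and 12 lowest fold changes and the 6 largest gains and 6 largest losses in CPM among called, non-overlapping protein-coding genes with a mean of at least 5 CPM, up to 4 called members of each list in its main direction and 2 in the other (mean of at least 1 CPM), 3 long noncoding RNAs in each direction, 5 genes in each direction of the line difference, and a panel of breast cancer genes. Those not described in the report are in the counts only, and some genes covered by the rule are not reported here. Genes picked after their values were seen are marked as such. Promoters are RefSeq entries of GRCh38.p14 of 300 bases. Code was tested on simulated counts.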

Additional observations from a re-analysis of the deposited data

Results flagged for a closer look

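The day 10 effect of BT474 differed from that of HCC1806, by the test of the difference itself, in 9 of the genes named by size; the 2 lines also differ in medium, and the count of such genes moved from 8 to 10093 when single libraries were left out. The log2 difference, BT474 minus HCC1806, was 5.98 for SHISAL1, 5.75 for KLK12, 5.57 for CLDN11, 5.19 for TFCP2L1 and 5.14 for KLK10. It was -7.99 for CACNA1D, -8.12 for CEACAM7, -8.80 for CD36 and -9.07 for KRT1.

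SHISAL1 was at 0 in both BT474 monolayers, CLDN11 at 0 and 0.0475 CPM there, and CACNA1D and CEACAM7 at 0 in both HCC1806 monolayers, and all 9 genes were under 1 CPM in at least 1 of the 8 libraries. The fitted values of SHISAL1, CLDN11, CACNA1D and CEACAM7 therefore depend on the prior count and are no measure of size. Those of the other genes are uncertain in size. This holds above all for CD36, at 0.0549 CPM in HCC1806 monolayer replicate 2, and for KRT1, at 0.0489 CPM in BT474 day 10 replicate 1. KLK10 had 7.40 and 7.78 CPM in BT474 day 10 spheroids and 0.120 and 0.665 CPM in BT474 monolayers, against 66.2 and 64.0 CPM in HCC1806 day 10 spheroids and 56.0 and 183 CPM in HCC1806 monolayers. CD36, a fatty acid receptor, had 0.244 and 0.141 CPM in BT474 day 10 spheroids and 0.407 and 0.499 CPM in BT474 monolayers, against 34.6 and 37.4 CPM in HCC1806 day 10 spheroids and 0.360 and 0.0549 CPM in HCC1806 monolayers. KRT1, a keratin of cornifying epidermis, had 0.0489 and 0.0565 CPM in BT474 day 10 spheroids and 1.25 and 0.665 CPM in BT474 monolayers, against 49.9 and 44.8 CPM in HCC1806 day 10 spheroids and 2.96 and 0.137 CPM in HCC1806 monolayers.

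Of the named genes called at day 10, 5 differed between day 20 and day 10 spheroids. The log2 difference, day 20 minus day 10, was -1.33 for APOD, -1.23 for MX1, -1.03 for NDRG1, -0.90 for TUBB6 and 0.76 for DDIT4 (edgeR's quasi-likelihood test, adjusted p = 0.023, 0.0353, 0.00842, 0.0418 and 0.0306).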

How the results depend on the processing

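Of 227 named genes called, 11 kept their call under every alternative and 98 lost it in the 12-library fit alone; DESeq2 lost 0, upper quartile scaling 5, no count filter 8, the 4-library fit 31, limma on FPKM 40, and leaving out day 10 replicate 1 or replicate 2 lost 95 and 103. A change of sign was counted as a reversal only where the reported or the alternative fit called the gene. The only such reversal was ESR1, at 0.25 without monolayer replicate 2, and it was -0.40 without monolayer replicate 1. Signs also changed without being counted, as for ABCG2 (0.31 and -1.62) and ALDH1A1 (0.10 and -1.03) in the same 2 fits. Counts of day 10 calls (2547) were 27 in the 12-library fit and 732 to 4689 with 1 library left out; at 2-fold or more (700) they were 295 with limma on FPKM, 27 in the 12-library fit and 400 to 980 with 1 library left out. The cause of these changes was not tested. Day 20 against day 10 (27) gave 184 with DESeq2, 0 with limma on FPKM, 57 with limma-voom, 327 with no filter, 0 in the 12-library fit and 1 to 1230 with 1 library left out. The line difference (282) gave 2143 with DESeq2, 992 with limma on FPKM, 498 with limma-voom, 513 with a mean CPM of at least 1, 1390 with no filter and 8 to 10093 with 1 library left out. With the replicate number as a block these counts were 2804 for day 10, 70 for day 20 and 98 for the line difference; same-numbered libraries did not deviate together (correlations -0.025, 0.018 and 0.031), so the numbers were not taken as pairs.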
